A study of Mus musculus with 8 samples.

Results

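The genes described here encode the muscle nicotinic acetylcholine receptor and the agrin, LRP4 and MuSK signal that gathers it at the synapse. They were taken by symbol as members of this pathway, with earlier results of these data known, and all 10 were found among the 35976 genes of the expression table. There were 5 receptor subunit genes (Chrna1, Chrnb1, Chrnd, Chrng and Chrne), the ligand gene Agrn, the co-receptor gene Lrp4, the kinase gene Musk, the adaptor gene Dok7 and the scaffold gene Rapsn. Expression was measured by RNA sequencing in C2C12, an established line of mouse myoblasts, dividing muscle precursor cells that form multinucleated myotubes once they differentiate. In 4 libraries the cells carried a non-targeting control shRNA, and in 4 an shRNA against Atad2, whose product is a chromatin-bound ATPase with a bromodomain. All cells were lysed 48 h after transfection, and no age, strain or further agent is given for either group. Whether each library had a culture of its own is not stated, and neither is the number of shRNA sequences. The p-values below therefore measure only the spread between these libraries, which may be technical.

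At the neuromuscular junction, acetylcholine released by the nerve opens a pentameric channel built from alpha, beta and delta subunits with either gamma or epsilon. The gamma subunit belongs to the fetal receptor and the epsilon subunit replaces it in innervated adult muscle. Agrin binds LRP4, LRP4 activates the receptor kinase MuSK, the adaptor DOK7 joins activated MuSK, and rapsyn ties receptors into clusters. In cultured muscle cells several of these genes are known to be turned on by factors of the MyoD family, which bind the E-box. The N-box is bound by ETS factors that serve synaptic nuclei.

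Upstream sequence is shown for 4 of these genes as a description of its letters. Chrna1, Chrng and Musk had equal numbers of E-box matches, and Chrne had the only N-box match found. The windows are the 250 bases before the transcription start, read 5′ to 3′ on the gene's own strand, from RefSeq on GRCm38.p6. RefSeq windows were matched for 7 of the 10 genes, with none for Chrnd, Rapsn and Lrp4, whose upstream letters were therefore not scanned. Capitals mark each match, on either strand, to the E-box (CANNTG) or the N-box (CCGGAA), and no 2 matches overlapped in the windows shown. The windows lie at chr2:73580339-73580588, minus strand, for Chrna1, at chr1:87205561-87205810, plus strand, for Chrng, at chr4:58285712-58285961, plus strand, for Musk and at chr11:70619195-70619444, minus strand, for Chrne. The RefSeq start of Chrng lies 1154 bases downstream of the GENCODE gene start given below, so its window falls within the gene as GENCODE draws it. The other starts shown differ from the GENCODE gene start by at most 22 bases.
Chrna1: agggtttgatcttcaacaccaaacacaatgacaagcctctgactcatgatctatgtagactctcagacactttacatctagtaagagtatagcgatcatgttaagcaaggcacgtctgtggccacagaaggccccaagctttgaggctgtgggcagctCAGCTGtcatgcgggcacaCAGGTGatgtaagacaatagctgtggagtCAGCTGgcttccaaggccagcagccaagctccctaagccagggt
Chrng: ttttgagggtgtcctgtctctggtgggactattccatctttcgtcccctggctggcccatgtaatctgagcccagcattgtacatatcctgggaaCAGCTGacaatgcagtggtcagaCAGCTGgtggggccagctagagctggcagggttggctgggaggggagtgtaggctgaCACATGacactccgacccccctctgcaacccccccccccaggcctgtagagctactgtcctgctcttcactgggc
Musk: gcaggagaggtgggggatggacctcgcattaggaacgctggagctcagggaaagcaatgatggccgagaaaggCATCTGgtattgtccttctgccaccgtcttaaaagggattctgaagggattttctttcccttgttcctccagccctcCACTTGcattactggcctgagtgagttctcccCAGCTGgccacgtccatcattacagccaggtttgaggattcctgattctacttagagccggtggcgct
Chrne: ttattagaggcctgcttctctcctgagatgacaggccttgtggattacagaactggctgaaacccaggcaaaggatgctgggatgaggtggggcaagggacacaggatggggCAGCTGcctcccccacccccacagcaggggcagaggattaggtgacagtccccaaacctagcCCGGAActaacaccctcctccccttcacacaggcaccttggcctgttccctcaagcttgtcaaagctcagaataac

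The windows of Chrna1, Chrng and Musk each held 3 E-box matches, as did that of Chrnb1. Among 32851 RefSeq windows of this length, 66.2% held at least 1 match and 12.2% at least 3. Chrne held 1 E-box match and the only N-box match among the 9 windows of these genes, at 76 bases before the start, and 12.03% of all windows held an N-box. Of the 2 starts listed for Agrn, the upstream one had neither motif and the other had 1 E-box match. The 2 starts of Dok7 had 1 and 0 E-box matches. A match is a description of the letters and not of bound protein.

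Recovered depth was 50.3 to 73.0 Mreads (megareads) per library, and 3 reads of a library's total, the floor used here, were 0.0411 to 0.0596 RPM. The floor covers counting error only. The targeted gene Atad2 lay at 14.60 to 14.74 in the control libraries and 11.77 to 12.05 in the Atad2 shRNA libraries (log2 fold change -2.73 ± 0.05, limma adjusted p = 4.6e-20). Atad2 replicate 3 stood apart on the second principal component, which held 8.29% of the variance, and calls without it are given with the results. The labelled cell type showed in Des, at 14.68 to 15.18 over the 8 libraries, and in Myod1, at 12.54 to 12.91. Of the 8 myoblast markers tested, 4 were higher with the Atad2 shRNA, Des and Myod1 among them, and 4 were lower. The lower ones were Pax7 (log2 fold change -3.27 ± 0.70), Myf5 (-1.28), Cdh15 (-0.96) and Vcam1 (-0.19). Pax7 was weak, with 19 to 41 reads in the controls and 0 to 12 with the Atad2 shRNA, so the size of its change is uncertain. Among markers of other cell types, Chat, Slc18a3 and Mnx1 (motor neuron), Sox10 (Schwann cell), Adgre1 and Tyrobp (macrophage), Lum, Tcf21 and Adipoq (fibroadipogenic) and Emcn (endothelial) had no read in any library. Other members of these lists were expressed and some changed. The 7 macrophage markers summed to 248 to 305 normalized counts in the controls and 549 to 678 with the Atad2 shRNA, mostly Cd68 (log2 fold change 1.17). The 8 Schwann cell markers summed to 11889 to 12652 and 7676 to 8635, mostly Pmp22 (-0.59), with Mbp lower as well (-1.69). Of 5 fibroadipogenic markers tested 3 were higher, among them Pdgfra (1.31), and 2 lower, Pdgfrb (-0.36) and Ly6a (-2.31). The 8 fibroadipogenic markers listed summed to 32753 to 33190 in the controls and 20575 to 24172 with the Atad2 shRNA, with Pdgfrb the largest part. The part of these shifts in the results was not tested.

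Of the 9 pathway genes tested, 5 were higher in the Atad2 shRNA libraries (Chrnd, Dok7, Musk, Lrp4 and Agrn), 2 were lower (Chrna1 and Chrnb1) and 2 did not pass (Chrng and Rapsn). Chrne was too weak to be tested. The threshold was a limma adjusted p under 0.05, and a gene was tested where its mean log2(normalized count + 1) exceeded 3. Over all 14703 genes tested, 60.4% passed, 30.8% higher and 29.6% lower, so a call on its own was common in this comparison. The values of the groups did not overlap for 7 of the 9 genes, against 53.5% of all genes tested. The median log2 fold change of the 9 was 0.49, against -0.01 over all genes tested. The comparison was not matched for level. Over all genes tested the median was 0.09 at a mean of 11 to 14, -0.04 at 8 to 11 and -0.49 at 3 to 8. In bulk RNA, fewer cells with a transcript and less transcript per cell cannot be told apart.

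The share of genes called depended on level. Among genes with a mean of 11 to 14, where Chrna1, Musk, Rapsn, Lrp4 and Agrn lay, 48.9% were higher and 21.7% lower. At 8 to 11, where Chrnb1 lay, 33.8% were lower. At 3 to 8, where Chrnd, Chrng and Dok7 lay, 8.64% were higher and 36.8% lower. A log2 fold change of at least 1 upwards, seen in Chrnd and Dok7, was found for 5.96% of genes of that last range.

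**Figure D1:**
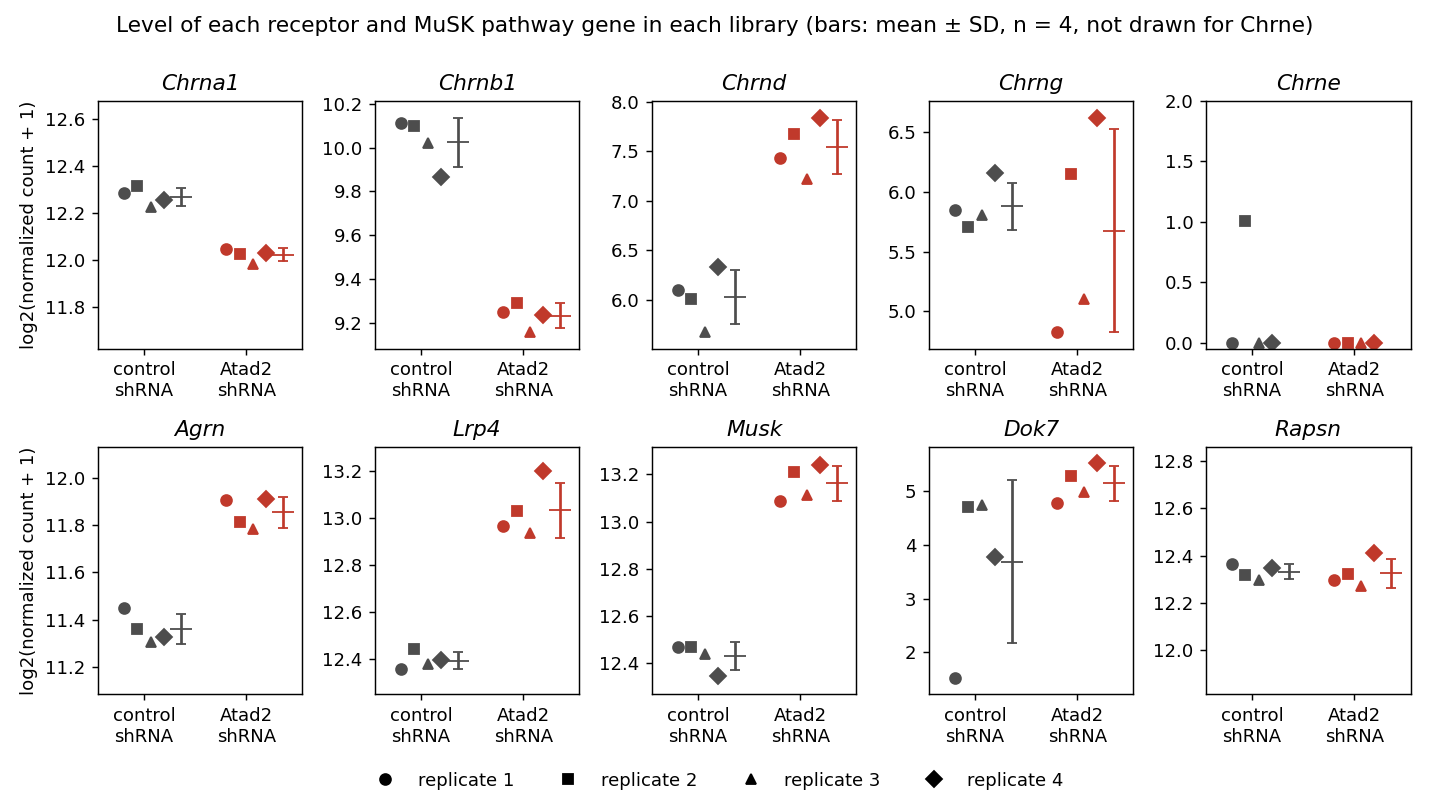
Each panel gives the level of 1 gene as log2(normalized count + 1), with a symbol for each replicate number, control shRNA in grey and Atad2 shRNA in red, beside the mean ± SD of 4 libraries (not drawn for Chrne). Musk, Lrp4, Agrn and Chrnd lie higher in every Atad2 shRNA library and Chrna1 and Chrnb1 lower, while Chrng and Rapsn overlap and the highest Dok7 control, at 4.75, lies just under the lowest Atad2 shRNA value, at 4.78.

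The receptor subunit genes moved apart from each other. Chrna1, the gene of the alpha subunit that carries most of the acetylcholine binding site (chromosome 2, 73563215 to 73580338, GRCm38), lay at 12.28, 12.31, 12.22 and 12.26 in control replicates 1 to 4. In the Atad2 shRNA libraries it lay at 12.05, 12.03, 11.98 and 12.03, below every control. The level was 1.19-fold lower (log2 fold change -0.25 ± 0.04, limma adjusted p = 5.6e-06).

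Chrnb1, which encodes the beta subunit (chromosome 11, 69784036 to 69795943), fell further. It lay at 10.11, 10.10, 10.02 and 9.87 in the controls and at 9.25, 9.29, 9.16 and 9.23 with the Atad2 shRNA. The groups stood well apart, and the level was 1.73-fold lower (log2 fold change -0.79 ± 0.07, limma adjusted p = 1.1e-08). Control replicate 4 was the lowest of its group and still lay above each Atad2 shRNA library.

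Chrnd, the delta subunit gene (chromosome 1, 87190607 to 87200070), went the other way. Its values were 6.10, 6.01, 5.67 and 6.34 in the controls, from 54 to 94 reads. With the Atad2 shRNA they were 7.43, 7.67, 7.22 and 7.84, from 115 to 212 reads. All 4 lay above the highest control, and the level was 2.85-fold higher (log2 fold change 1.51 ± 0.20, limma adjusted p = 1.5e-06).

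Chrng, the fetal gamma subunit gene, is the next of these genes on chromosome 1 (87204657 to 87212694, same strand), 4.59 kb beyond the end of Chrnd. It lay at 5.84, 5.71, 5.80 and 6.16 in the controls and at 4.83, 6.15, 5.11 and 6.62 with the Atad2 shRNA. The Atad2 shRNA libraries held both the lowest and the highest values, and the groups overlapped. The difference was -0.20 ± 0.33 on the log2 scale (95% interval -0.90 to 0.49, limma adjusted p = 0.62), which leaves room for a change of either sign. The SD among the Atad2 shRNA libraries was 0.85, against 0.19 in the controls.

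Chrne, the adult epsilon subunit gene (chromosome 11, 70614883 to 70619216), had 1 read in control replicate 2 and none in the other 7 libraries. Both groups lay under the floor, so no fold change is given, and a gamma to epsilon ratio could not be formed. The antisense gene 4930544D05Rik, which lies within Chrne on the opposite strand, had 2 to 15 reads per library. Chrne held the only N-box match among the 7 genes with windows, and its transcript stayed under the floor at this depth. Any link between the 2 was not tested.

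Differences between subunit genes were also taken within each library. Within a library, Chrnd minus Chrng was 0.15 ± 0.19 in the controls and 1.87 ± 0.62 with the Atad2 shRNA (log2 scale, SD, n = 4 each). The change was 1.71 ± 0.32, and the groups did not overlap. Chrnd minus Chrnb1 went from -3.99 ± 0.34 to -1.69 ± 0.24, and Chrna1 minus Chrnb1 from 2.24 ± 0.10 to 2.79 ± 0.04, both without overlap. These differences, and those between pathway genes below, were chosen after the values were seen and are descriptions with no test.

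Levels were compared between genes per kb of merged GENCODE M21 exons, as normalized counts per kb. In the controls Chrna1 stood at 1125 ± 30.0, Chrnb1 at 412 ± 31.2, Chrnd at 19.8 ± 3.72 and Chrng at 13.99 ± 2.02 (SD, n = 4 each). Chrnd and Chrng overlapped there, at 15.2 to 24.2 and 12.3 to 16.9. With the Atad2 shRNA Chrna1 stood at 949 ± 17.5, Chrnb1 at 237 ± 9.06, Chrnd at 57.0 ± 10.7 and Chrng at 13.7 ± 7.85, and Chrnd lay above Chrng in every library. The Chrna1 to Chrnd ratio per kb was 58.2 ± 10.7 in the controls and 17.1 ± 3.04 with the Atad2 shRNA, so Chrnd stayed the scarcer transcript in both groups. The annotation behind the counts is not stated, so the exon lengths they rest on may differ from these.

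**Figure D2:**
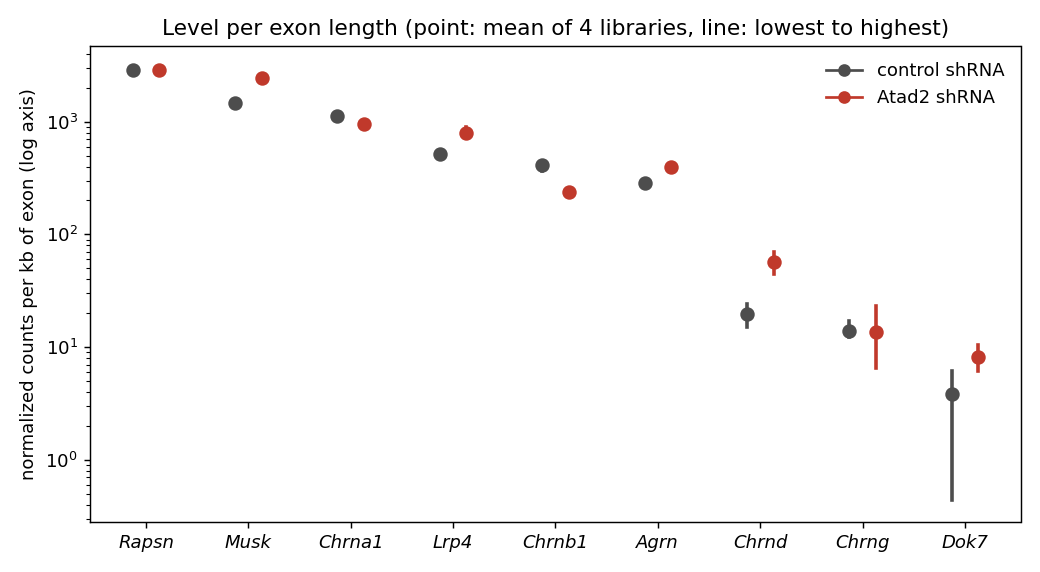
Points are the mean normalized counts per kb of exon over 4 libraries on a log axis, lines run from the lowest to the highest library, grey is control shRNA and red Atad2 shRNA, and Chrne is left out. Rapsn and Musk lead in both groups, Chrnd, Chrng and Dok7 lie lowest, and Chrnd moves from 19.8 to 57.0.

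The genes of the agrin signal were higher after the knockdown, with Rapsn as the exception. Agrn encodes agrin, a heparan sulfate proteoglycan made by both nerve and muscle (chromosome 4, 156165290 to 156197488). It lay at 11.45, 11.36, 11.31 and 11.33 in the controls and at 11.91, 11.81, 11.79 and 11.91 with the Atad2 shRNA. No library of one group reached the other, and the level was 1.41-fold higher (log2 fold change 0.49 ± 0.04, limma adjusted p = 7.0e-09). These values count the whole gene, so the nerve form of agrin that clusters receptors cannot be told apart from the muscle form.

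Lrp4, the agrin receptor (chromosome 2, 91457511 to 91513779), lay at 12.36, 12.44, 12.38 and 12.40 in the controls. With the Atad2 shRNA it lay at 12.96, 13.03, 12.94 and 13.20, with replicate 4 the highest. The level was 1.56-fold higher (log2 fold change 0.64 ± 0.05, limma adjusted p = 1.4e-10).

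Musk, the receptor tyrosine kinase (chromosome 4, 58285960 to 58374303), showed the smallest adjusted p of the 9 genes tested. It lay at 12.47, 12.47, 12.44 and 12.35 in the controls, from 5640 to 6137 reads, and at 13.09, 13.21, 13.11 and 13.24 with the Atad2 shRNA, from 6888 to 9907 reads. The groups did not overlap, and the level was 1.66-fold higher (log2 fold change 0.73 ± 0.04, limma adjusted p = 1.9e-12). Within libraries, Musk minus Lrp4 was 0.04 ± 0.07 in the controls and 0.13 ± 0.06 with the Atad2 shRNA. Those values overlapped (change 0.10 ± 0.05).

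Dok7, the cytoplasmic activator of MuSK (chromosome 5, 35056766 to 35087839), was weak. It had 2, 25, 28 and 15 reads in control replicates 1 to 4 and 29, 40, 24 and 39 reads with the Atad2 shRNA. Normalized, these were 1.53, 4.71, 4.75 and 3.78 against 4.78, 5.29, 4.99 and 5.53, so the groups were separated only narrowly. The log2 fold change of 1.46 ± 0.55 passed the threshold (limma adjusted p = 0.028). Without control replicate 1, which had 2 reads, it was 0.74 and did not pass (limma adjusted p = 0.116), and the call was lost as well without Atad2 replicate 2 (0.0598) or Atad2 replicate 4 (0.0629).

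Rapsn encodes rapsyn, which binds the receptor from inside the cell (chromosome 2, 91035620 to 91045729). It lay at 12.36, 12.32, 12.29 and 12.35 in the controls and at 12.30, 12.32, 12.27 and 12.41 with the Atad2 shRNA, with full overlap. The difference was -0.01 ± 0.04 with a 95% interval of -0.09 to 0.07 (limma adjusted p = 0.88). With quantile normalization it was -0.10 and passed the threshold (limma adjusted p = 0.0316). The antisense processed transcript Gm13778 overlaps the end of Rapsn, and although the library kit marks strand, the setting used in counting is not stated.

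Musk minus Rapsn within a library went from 0.10 ± 0.07 to 0.84 ± 0.04, and Lrp4 minus Rapsn from 0.06 ± 0.06 to 0.71 ± 0.06 (SD, n = 4 each). A single scale factor per library cancels in such a difference. Per kb, Rapsn was the most abundant of the 10 transcripts in both groups, at 2861 ± 60.8 and 2849 ± 123 normalized counts per kb. Musk followed at 1463 ± 58.0 and 2430 ± 125. The Musk to Rapsn ratio per kb was 0.51 ± 0.02 in the controls and 0.85 ± 0.02 with the Atad2 shRNA. Lrp4 stood at 513 ± 12.8 and 799 ± 66.3 and Agrn at 283 ± 12.7 and 399 ± 18.0. Agrn lay below Chrnb1 in the controls and above it with the Atad2 shRNA, without overlap in either group. Dok7, at 3.84 ± 2.68 and 8.23 ± 1.92, had the lowest mean of the 9 genes tested, and its range met that of Chrng in the Atad2 shRNA libraries only.

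**Figure D3:**
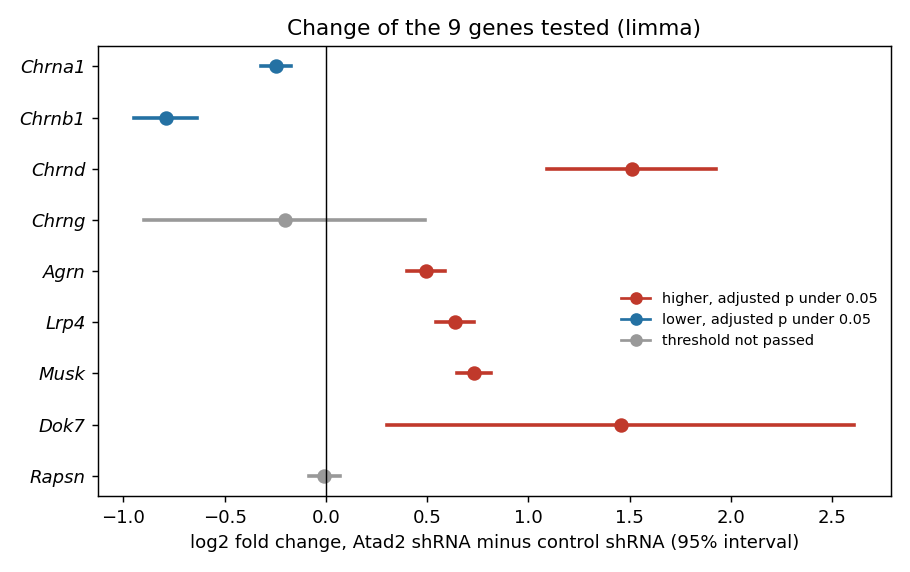
Points are log2 fold changes (Atad2 shRNA minus control shRNA) of the 9 genes tested, lines their 95% intervals from limma, red for higher, blue for lower and grey for genes that did not pass the threshold. Intervals of Musk, Lrp4 and Agrn are narrow and lie between 0.40 and 0.81, while that of Dok7 runs from 0.30 to 2.61.

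Leaving out single libraries gave the same calls for Chrna1, Chrnb1, Chrnd, Musk, Lrp4 and Agrn in all 8 fits. Without Atad2 replicate 3, 5 genes were higher and 2 lower, as with all libraries. The Chrng difference changed sign without Atad2 replicate 1, to 0.08 (limma adjusted p = 0.848).

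An order of single libraries in the Atad2 shRNA group was picked after the values of these genes were seen, and is only described here. Replicates 2 and 4 both lay above replicates 1 and 3 for 6 of the 9 tested genes (Chrnd, Chrng, Dok7, Musk, Lrp4 and Rapsn). Chrna1, Chrnb1 and Agrn lacked it. Over all 14703 genes tested this order was seen for 15.8%. Since the order was picked from the pathway genes, their larger share follows at least in part from the choice and is no test. In the control libraries the order held for Lrp4 alone of the 9, and for 14.1% of all genes tested. The spread was largest for Chrng, from 4.83 in replicate 1 to 6.62 in replicate 4, and small for Rapsn, from 12.27 to 12.41.

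The order was shared by 5 of the 7 myotube markers tested (Myh3, Myh1, Acta1, Ttn and Mylpf), and not by Tnnt3 and Tmem8c. It was not confined to them, and held for 3 of 8 myoblast markers tested (Myod1, Des and Vcam1) and 2 of 5 fibroadipogenic ones. It also held for 1 of 4 motor neuron, 1 of 5 Schwann cell, 1 of 2 macrophage and 0 of 3 endothelial markers tested. Myog (myogenin), an early differentiation factor, lay at 6.75, 7.25, 6.57 and 7.20 in Atad2 replicates 1 to 4 and at 4.48 to 5.09 in the controls. Of the 10 myotube markers, 10 had reads, 7 were tested and 6 of these were higher. Their summed level was 729 to 949 normalized counts in the controls and 4830, 6047, 5291 and 6021 in Atad2 replicates 1 to 4, mostly Ttn. Without Ttn it was 475 to 672 and 1065 to 1411. The embryonic myosin gene Myh3 lay at 7.43, 7.82, 7.19 and 7.89 in these libraries and at 1.00 to 3.24 in the controls. Motor neuron markers, relevant to Agrn as a nerve product, summed to 761 to 1003 in the controls and 1075 to 1377 with the Atad2 shRNA, with 2 of 4 tested higher and 1 lower. That sum was mostly Tubb3, and without Tubb3 it was lower with the Atad2 shRNA, at 89.0 to 103, than in the controls, at 134 to 164. The part of these shifts in the changes of the receptor and MuSK pathway genes was not tested.

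**Figure D4:**
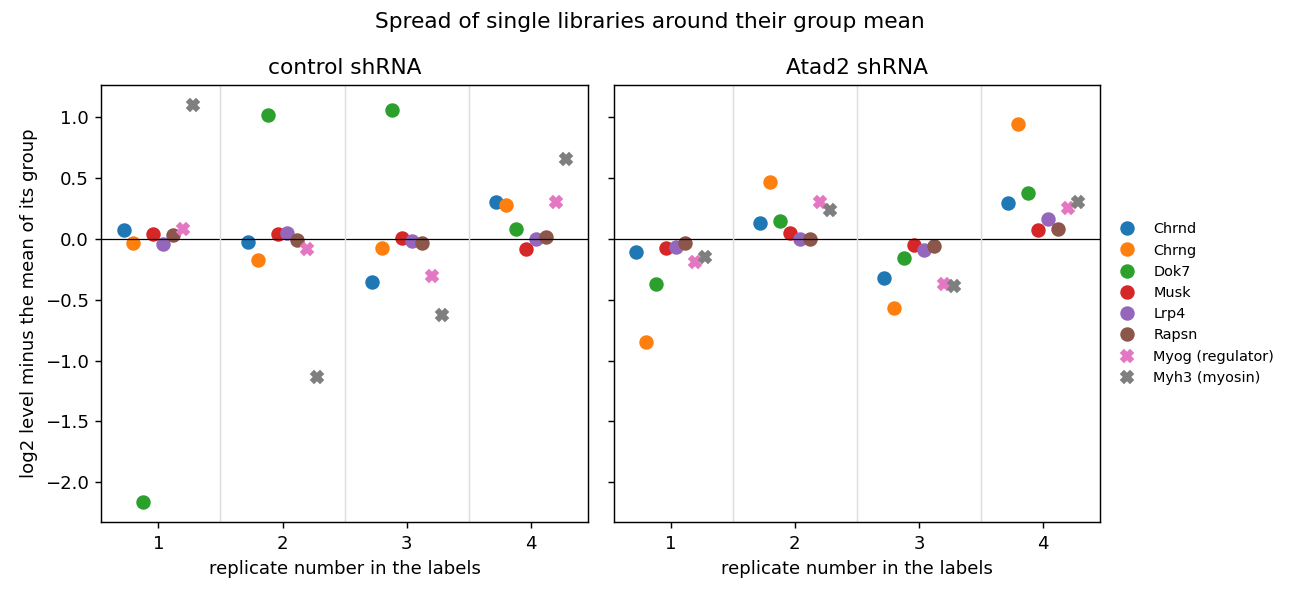
The vertical axis gives each library's log2 level minus the mean of its own group, by replicate number, for 6 pathway genes (circles) and for Myog and Myh3 (crosses). The 6 pathway genes drawn are those with replicates 2 and 4 above replicates 1 and 3 in the Atad2 shRNA group. That order in the panel therefore follows from the choice, and Myog and Myh3 share it. Chrna1, Chrnb1 and Agrn, which lack it, are left out, and so are the myotube markers Tnnt3 and Tmem8c. Chrng is spread most widely in the Atad2 shRNA group, and in the controls Dok7 replicate 1 lies farthest down.

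The known regulators of the subunit genes changed in different directions. Myod1 rose from 12.61 ± 0.06 to 12.86 ± 0.06 (0.25 ± 0.04, limma adjusted p = 1.1e-05) and Myog by 2.15 ± 0.26 (limma adjusted p = 3.3e-07). Myf5 fell from 9.54 ± 0.15 to 8.26 ± 0.13 (-1.28 ± 0.10, limma adjusted p = 7.5e-10). Myf6, with 1 to 6 reads in the controls and 0 to 5 with the Atad2 shRNA, was not tested.

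Lists of related genes give the setting for the 10, and each list is described by its counts alone. Over all genes tested, 30.8% were higher and 29.6% lower, but these shares depended on level and the lists were not matched for it. At a mean of 11 to 14, 48.9% were higher and 21.7% lower, and at 3 to 8, 8.64% and 36.8%. A list share above the overall one is therefore no sign of an excess by itself. In a list of 34 transcription factors, HDACs and neuregulin signal genes tied to synaptic transcription, 17 of 29 tested were higher (58.6%) and 6 lower (20.7%), with a median log2 fold change of 0.21. Etv4, an ETS factor, rose by 1.16 ± 0.05, from 10.77 ± 0.06 to 11.93 ± 0.05. The E-protein antagonists Id1 and Id2 rose by 0.88 ± 0.04 and 0.90 ± 0.04, and the zinc finger factor gene Klf5 by 0.97 ± 0.05. Nrg1 (neuregulin 1, a ligand of ErbB receptors) changed by -1.24 ± 0.05, from 12.22 ± 0.10 to 10.99 ± 0.11. For these 5 genes the highest limma adjusted p was 6.8e-13, that of Klf5.

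Among 30 genes of proteins that act with or after MuSK, 13 of 29 tested were higher (44.8%) and 4 lower (13.8%). The median was 0.08, and none of the genes called changed by 2-fold. Ctnnb1 (beta-catenin) rose by 0.52 ± 0.03, the tyrosine kinase gene Abl2 by 0.67 ± 0.04, the adaptor gene Sh3bp2 by 0.77 ± 0.06 and Dvl3, a dishevelled gene, by 0.40 ± 0.04. Rhoa changed by -0.16 ± 0.03 and the Src family kinase gene Yes1 by -0.18 ± 0.06. With quantile normalization 8 of this list were higher and 11 lower, so its balance of directions rests on the scaling.

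Of 25 synaptic matrix, scaffold and membrane genes, 6 of 19 tested were higher (31.6%) and 8 lower (42.1%). The median was -0.01. Utrn (utrophin) fell by 0.55 on the log2 scale, the laminin gene Lama4 by 0.97 and the nidogen gene Nid2 by 1.58. Kcnj2, a potassium channel gene, changed by -1.39 ± 0.07. Lama2, another laminin gene, rose by 0.79 ± 0.04 and Nid1 by 0.53 ± 0.03. The acetylcholinesterase gene Ache, its collagen tail gene Colq and Bche were among the 6 too weak to test, at no more than 15 reads in any library.

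Genes of receptor assembly and glycosylation were mostly not called. Of 18 tested in a list of 20, 4 were higher (22.2%), 1 was lower (5.56%) and 13 did not pass. The median was 0.03. Hspa5, the chaperone BiP, rose by 0.44 ± 0.04, Prepl by 0.39 ± 0.04, and Gfpt1 and Dpagt1, enzymes of sugar supply and N-glycan synthesis, by 0.17 ± 0.04 and 0.11 ± 0.04. Sorbs2, a cytoskeletal adaptor gene, changed by -2.65 ± 0.45. With quantile normalization 2 were higher and 6 lower.

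The other nicotinic subunit genes were nearly silent. Of 11, 5 had no read in any library and 5 others had at most 10 reads in a library. Chrnb2 alone was tested, at 7.13 ± 0.27 in the controls and 7.56 ± 0.15 with the Atad2 shRNA. Those values overlapped, narrowly passed the threshold (0.43 ± 0.17, limma adjusted p = 0.030), and no longer did without control replicate 1, control replicate 2, Atad2 replicate 2 or Atad2 replicate 4.

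For Chrna1 and Musk, the genes with the most similar level over the 8 libraries were sought by Pearson correlation. The closest to Chrna1 were Mical2, Plau and Atp1b1, with r of 0.9978, 0.9976 and 0.9973. Closest to Musk were Lama2, Camkk2 and Cdc25b, with r of 0.9984, 0.9978 and 0.9963. Lama2 is a member of the matrix list above. With 2 groups of 4 such values mostly reflect the group difference, and r above 0.95 was found with Chrna1 for 840 genes and with Musk for 1199, or 5.71% and 8.15% of those tested.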

How the data were processed

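Total RNA of 8 C2C12 libraries (4 per group) was sequenced. The submitters' processing notes name build mm10, HTSeq 0.13.5, DESeq2 without a version, SAMtools 1.1 and bcl2fastq 2.20, with no order or role. For the aligner, annotation and strand setting, the sources used here give nothing. As the authors deposited them, the values are log2(x + 1) of read counts divided by 1 size factor per library, with 3 decimals, as judged from the values themselves: converted back, low values were whole multiples of 1 step per library (within 0.1 reads for 100%). That step gave the reads, which are approximate for high genes.

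Genes with a mean above 3 were fitted with limma 3.58.1 in R 4.3.3 (eBayes with trend, no covariates, two-sided, Benjamini-Hochberg over all genes tested). Errors of fold changes are SE. The 1 added before the log shrinks the fold changes of weak genes, but a single low library can enlarge a difference of log2 means. For Dok7 that difference was 1.46, and 0.74 without control replicate 1. Pairs of replicates differed by more than counting error (chi-square per gene 5.82 to 15.3 over 12 pairs). The procedure was tested on simulated data, in which only genes of higher count were changed and the added spread was the same for all. That test does not cover weak genes such as Dok7. Python 3.11.15, NumPy 2.4.6, pandas 2.3.3, SciPy 1.17.1 and matplotlib 3.10.9 made the other tables and plots.

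The genes and lists were chosen with earlier results of these data known. Of 120 list symbols 120 were in the table, 1 under an older symbol. Named were the 10 pathway genes, Atad2, 4 MyoD family genes, by smallest adjusted p up to 4 called genes of each list in the direction with more calls and up to 2 in the opposite one, and the 3 genes most like Chrna1 and Musk. The alternatives tried left out the filter, raised it to a mean of 5, used 8 as the offset, or used median centring, quantile normalization, no variance trend, limma-voom on recovered reads, the replicate block, leaving out each library and an adjusted p under 0.01.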

Additional observations from a re-analysis of the deposited data

Results flagged for a closer look

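Within-group outliers were sought with Dixon's test at its 95% limit in 43 genes, the pathway genes and those named beside them. Of the 85 groups with any spread 3 were marked, and chance marks about 1 in 20. Chrne had a level of 1.00 in control replicate 2, which is 1 read, against 0 in the other controls. Ctnnb1 lay at 15.38 in control replicate 4, against 15.30 to 15.31 in the other controls. Dvl3 lay at 12.29 in control replicate 3, against 12.08 to 12.11 in the other controls.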

How the results depend on the processing

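The calls of Chrna1, Chrnb1, Chrnd, Musk, Lrp4 and Agrn were the same under all 17 alternatives. Of the 10 genes, 4 or 5 were higher and 2 or 3 lower. The third lower gene was Rapsn, with quantile normalization. The Dok7 call was lost under 6 of the 16 alternatives that tested it (limma adjusted p from 0.00556 to 0.325), among them no filter (0.325) and no variance trend (0.116). Chrng did not pass in any, and its sign changed with quantile normalization (0.267) and without Atad2 replicate 1 (0.0783, with -0.518 to 0.0783 leaving out single libraries). Rapsn changed sign without control replicate 1 (0.00367), Atad2 replicate 1 (0.00267) or Atad2 replicate 3 (0.0113), within -0.0357 to 0.0113 leaving out single libraries. The same-numbered libraries share only a number (correlations of their deviations from -0.0227 to 0.0336). With the replicate block 5 genes were higher and 2 lower, and over all genes 4562 were higher and 4379 lower. The call on the other nicotinic genes (1 higher) became 0 with no filter or an adjusted p under 0.01, and 0 to 1 leaving out single libraries. Of the MuSK effectors 8 were higher and 11 lower with quantile normalization, and 1 was lower with no filter, no variance trend or an adjusted p under 0.01 (2 to 4 leaving out single libraries). Of the assembly genes 2 were higher and 6 lower with quantile normalization, and 1 to 2 lower leaving out single libraries. The cause of these shifts was not tested. No gamma to epsilon comparison could be run, since Chrne lay under the floor. Dok7 rested on 2 to 40 reads per library.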
